A study of Mus musculus with 6 samples.

Results

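The inflammasome and necroptosis machinery was examined as 10 genes, Casp1, Casp4, Casp8, Nlrp3, Pycard, Gsdmd, Il18, Ripk1, Ripk3 and Mlkl, in the livers of L1-Tg and WT mice. The members were all non-control probes whose RefSeq accession belongs to 1 of these genes, which gave 12 probes for 10 genes among 55681 probes for 37074 genes on the array. All 10 genes were tested, among 22346 genes in all. L1-Tg mice were hemizygous for B6;D2-Tg(APOE-NPC1L1)20Lqyu/J, a transgene that places human NPC1L1, a cholesterol re-absorber, under the APOE promoter and is expressed in hepatocytes. The line had been backcrossed to C57BL/6J for 8 or more generations, and WT mice were littermates without the transgene. Both groups were male, 6 to 12 weeks old and fed a control fat diet (CFD), with 3 arrays each, and the RNA of 2 or 3 mice was pooled for an array. The comparison asks how the liver transcripts of the genotypes differ when no high-fat diet is given.

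Inflammasomes are cytosolic complexes in which a sensor such as NLRP3 recruits the adaptor ASC (Pycard) and the protease caspase-1, which matures IL-1beta and IL-18 and cuts gasdermin D into a pore-forming fragment. Necroptosis is a lytic death in which RIPK1 or another RHIM protein engages RIPK3, RIPK3 phosphorylates MLKL, and MLKL permeabilizes the plasma membrane, while caspase-8 restrains the pathway. In the liver these inflammasome components are best known from Kupffer cells and other myeloid cells, and RIPK3 is low in healthy hepatocytes.

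Signals are given as log2 of the processed Cy3 intensity minus the 75th percentile of the array, so that 0 is a probe as bright as that percentile. On the linear scale that percentile was an intensity of 297 to 378. The share of probe spots well above background was 53.1% to 59.2% by array, with 0 saturated spots. The slide held all WT arrays in row 1 and all L1-Tg arrays in row 2, so the row and the genotype cannot be told apart. No probe for the human transgene was used here, so the genotype labels were not checked against it. All 15 hepatocyte marker genes examined were well above background on all 6 arrays. In bulk liver, fewer cells of a type and less RNA per cell cannot be told apart. No source says that the pools share no animals, so the spread and the p-values measure only the variation between these pools.

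The promoter windows of the members are shown where they held a searched motif, together with that of Mlkl, which had the largest difference of the 10 genes. RefSeq windows of 300 bases around an annotated start (GRCm38.p6) were matched for 9 of the 10 genes, in 12 windows, and Gsdmd was not among them. Both strands were searched for the interferon-stimulated response element (ISRE) core, a pair of GAAA separated by 2 bases, the gamma-activated site TTCNNNGAA and the NF-kB consensus. These occurred in 3.44%, 8.30% and 4.51% of the 32851 windows in the table, and in a window of 3.99%, 9.55% and 5.14% of its 27025 genes. Among the members the ISRE core and the gamma-activated site were found in 1 gene, Ripk1, and the NF-kB consensus in 2, Casp4 and Nlrp3. Capitals mark the matched bases in the windows below, written 5′ to 3′ on the strand of the gene.
Casp4, chr9:5308599-5308898, plus strand: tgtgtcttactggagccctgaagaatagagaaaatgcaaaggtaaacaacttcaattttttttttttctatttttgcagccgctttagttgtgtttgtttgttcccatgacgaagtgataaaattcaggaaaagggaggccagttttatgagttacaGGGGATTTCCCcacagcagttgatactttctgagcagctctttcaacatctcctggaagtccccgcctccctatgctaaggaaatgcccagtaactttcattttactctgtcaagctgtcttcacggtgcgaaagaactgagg
Nlrp3, chr11:59541319-59541618, plus strand: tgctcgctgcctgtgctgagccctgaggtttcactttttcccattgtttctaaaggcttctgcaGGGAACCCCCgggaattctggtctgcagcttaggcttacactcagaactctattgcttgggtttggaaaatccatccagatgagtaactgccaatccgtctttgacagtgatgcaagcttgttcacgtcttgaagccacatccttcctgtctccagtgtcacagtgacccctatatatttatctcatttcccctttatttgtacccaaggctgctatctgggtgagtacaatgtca
Ripk1, chr13:34002624-34002923, plus strand: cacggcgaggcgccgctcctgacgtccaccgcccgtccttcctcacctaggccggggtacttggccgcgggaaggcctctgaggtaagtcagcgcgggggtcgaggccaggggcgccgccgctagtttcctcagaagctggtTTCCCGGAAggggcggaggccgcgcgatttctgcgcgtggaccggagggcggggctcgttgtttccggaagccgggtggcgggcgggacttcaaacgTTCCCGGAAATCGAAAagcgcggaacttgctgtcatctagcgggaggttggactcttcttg
Mlkl, chr8:111338156-111338455, minus strand: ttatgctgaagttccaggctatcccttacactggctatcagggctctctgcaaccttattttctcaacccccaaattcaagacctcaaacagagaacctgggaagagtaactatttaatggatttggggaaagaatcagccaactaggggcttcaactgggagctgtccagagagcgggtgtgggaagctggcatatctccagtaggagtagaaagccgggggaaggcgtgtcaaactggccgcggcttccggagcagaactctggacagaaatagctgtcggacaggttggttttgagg
In Casp4, overlapping NF-kB matches on the plus strand began 93 and 92 bases before the start, and its other annotated start, 11 bases further on, shares them. In Nlrp3 the match began 186 bases before the start, and the window of its other start held none of the motifs. In Ripk1 the gamma-activated sites began 108 and 11 bases before the start. The second of them overlapped the ISRE core, which spanned the start itself. The other Ripk1 window, which lay upstream, held none of the motifs. The windows of Mlkl, Casp1, Casp8, Il18, Pycard and Ripk3 held none of these letters, which says nothing about the factors themselves.

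Of the 10 genes, 9 had a higher mean signal in L1-Tg than in WT livers, and the median log2 difference was 0.28 against -0.03 over all genes tested, of which 43.1% were higher. Mlkl, the executioner of necroptosis, stood highest with a log2 difference of 1.15, and the next was Casp1 with 0.52. After Benjamini-Hochberg adjustment over all 22346 genes, limma called 0 of the 10 members, where it called 0.130% of all genes. At an unadjusted p under 0.05 there were 4 members, Mlkl, Nlrp3, Casp1 and Casp8, all of them higher in L1-Tg mice, where 8.86% of all genes passed and 4.54% passed on the higher side. The same 4 genes were those whose L1-Tg values all lay above the WT values, against 15.9% of all genes with groups that did not overlap in either direction and 7.27% in this one. With 3 pools a group, the smallest p of an exact permutation test is 0.10. The members with an unadjusted p under 0.05 numbered 1 without L1-Tg replicate 1, L1-Tg replicate 3 or WT replicate 1. They numbered 2 when replicate 2 of either genotype was left out. Without WT replicate 3 they numbered 4, with Casp4 in place of Casp8. They numbered 1 with a replicate block or without a filter on dim probes, and 2 without scaling. The number over all genes moved as well, from 1980 of 22346 with all arrays. With 1 array left out it lay between 1146 of 22752 (without L1-Tg replicate 3) and 2833 of 22539 (without WT replicate 3). It was 1847 with a replicate block, 2488 of 37073 without a filter on dim probes and 1229 without scaling. Leaving out WT replicate 1 also lowered the median of the members from 0.28 to 0.17.

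**Figure D1:**
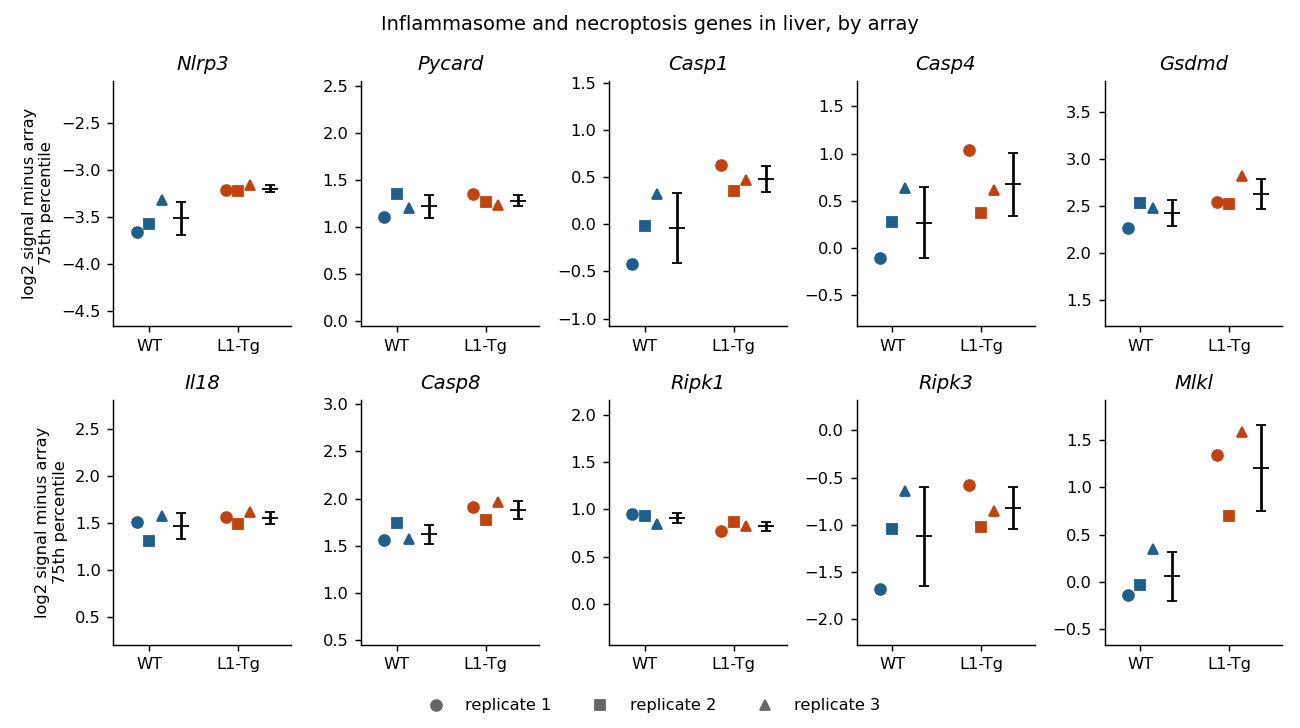
Log2 signal minus the 75th percentile of the array (vertical axis, the same span in each panel) for the 10 genes on the 3 WT arrays (blue) and the 3 L1-Tg arrays (orange), with symbols for the replicates and bars for the mean and SD. The groups do not overlap for Mlkl, Casp1, Nlrp3 and Casp8, and WT replicate 1 is the lowest WT array for 8 of the 10 genes.

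Neither the sensor nor the adaptor of the inflammasome passed the test. Nlrp3 was dim, with log2 signals of -3.22, -3.22 and -3.16 in L1-Tg replicates 1, 2 and 3 and of -3.66, -3.57 and -3.32 in the WT replicates. The groups did not overlap, and the 3 L1-Tg values lay within a narrow band just above the highest WT value. The log2 difference was 0.31 (standard error, SE, 0.12, adjusted p = 0.537 in limma). The gene has a second, dimmer probe, which was well above background on 2 L1-Tg arrays and 1 WT array and differed by -0.0033, so the probes disagreed. The difference of the brighter probe turned to -0.04 with a normexp background correction. Pycard, the adaptor that links the sensor to caspase-1, gave 1.35, 1.26 and 1.23 in L1-Tg and 1.11, 1.35 and 1.20 in WT mice. Its groups overlapped, and the log2 difference was 0.06 with a 95% confidence interval from -0.18 to 0.30 (limma adjusted p = 0.849).

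The inflammatory caspases, which cut gasdermin D, lie next to each other on chromosome 9, with Casp12 beyond Casp4. Casp1, the protease of the canonical inflammasome, gave log2 signals of 0.63, 0.35 and 0.47 in L1-Tg mice and of -0.42, -0.02 and 0.32 in WT mice. The lowest L1-Tg value lay just above the highest WT value, and the WT pools were spread more widely, with an SD of 0.373 against 0.139. The log2 difference was 0.52 (SE 0.20, adjusted p = 0.546 in limma), which is a fold of 1.44. Without WT replicate 1 it was 0.33. Casp4, the mouse caspase-11 that senses cytosolic lipopolysaccharide, gave 1.04, 0.37 and 0.61 in L1-Tg mice and -0.11, 0.27 and 0.64 in WT mice. The groups overlapped, since WT replicate 3 lay above 2 of the L1-Tg arrays, and the log2 difference was 0.41 (SE 0.24, adjusted p = 0.639 in limma). Its other probe followed the same order of arrays and differed by 0.30. The difference of the first probe was 0.22 without WT replicate 1 and 0.22 without L1-Tg replicate 1.

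Downstream of the caspases, Gsdmd and Il18 were both well above background on every array. Gsdmd, whose product forms the pore of pyroptosis, was measured on 10 spots of 1 probe, whose coefficient of variation within an array was between 2.82% and 3.36%. Its log2 signals were 2.55, 2.53 and 2.82 in L1-Tg mice and 2.27, 2.53 and 2.48 in WT mice, so L1-Tg replicate 2 and WT replicate 2 lay at the same level. The log2 difference was 0.20 (95% confidence interval from -0.10 to 0.50, limma adjusted p = 0.644). It was 0.11 without L1-Tg replicate 3 and 0.12 without WT replicate 1. Il18, the cytokine that caspase-1 matures, gave 1.56, 1.48 and 1.61 in L1-Tg mice and 1.51, 1.31 and 1.57 in WT mice. These overlapped almost fully, with a log2 difference of 0.09 (95% confidence interval from -0.17 to 0.35, limma adjusted p = 0.788).

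Casp8 stands between the pathways, as the initiator of death receptor apoptosis and the protease that cuts RIPK1 and RIPK3. Its log2 signals were 1.91, 1.78 and 1.96 in L1-Tg mice and 1.56, 1.74 and 1.57 in WT mice. The groups did not overlap, but L1-Tg replicate 2 lay only slightly above WT replicate 2. The log2 difference was 0.26 (SE 0.10, adjusted p = 0.550 in limma), a fold of 1.20, and it lay between 0.22 and 0.32 with any 1 array left out.

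For the kinases of necroptosis the groups overlapped. Ripk1, the scaffold kinase downstream of TNF receptor 1, gave 0.77, 0.87 and 0.82 in L1-Tg mice and 0.96, 0.93 and 0.85 in WT mice. The SD was 0.048 in L1-Tg and 0.056 in WT mice, and the groups overlapped through WT replicate 3. The log2 difference was -0.09 (95% confidence interval from -0.30 to 0.12, limma adjusted p = 0.745), and scaling to the array median gave 0.02. Ripk3, the kinase that activates MLKL, gave -0.58, -1.03 and -0.85 in L1-Tg mice and -1.68, -1.04 and -0.64 in WT mice. WT replicates 1 and 3 enclosed all L1-Tg values but 1, and the log2 difference of 0.30 (SE 0.27, adjusted p = 0.727 in limma) came to 0.02 without WT replicate 1.

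Mlkl, the pore-forming effector of necroptosis, differed most. Its log2 signals were 1.34, 0.70 and 1.58 in L1-Tg mice and -0.14, -0.04 and 0.35 in WT mice. All L1-Tg arrays lay above all WT arrays, with L1-Tg replicate 2 the nearest to them. The mean was 1.21 ± 0.46 (SD, n = 3 pools) in L1-Tg and 0.06 ± 0.26 in WT mice, a fold of 2.22 with a 95% confidence interval from 1.45 to 3.39. The log2 difference was 1.15 (SE 0.25, adjusted p = 0.341 in limma, unadjusted p = 0.0035), and it ranked 224 by p among all genes. A log2 difference of at least 1 on the higher side was found for 1.04% of all genes tested. It lay between 0.96 and 1.40 over the 17 alternatives with an estimate for it, and its adjusted p between 0.172 and 0.848.

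**Figure D2:**
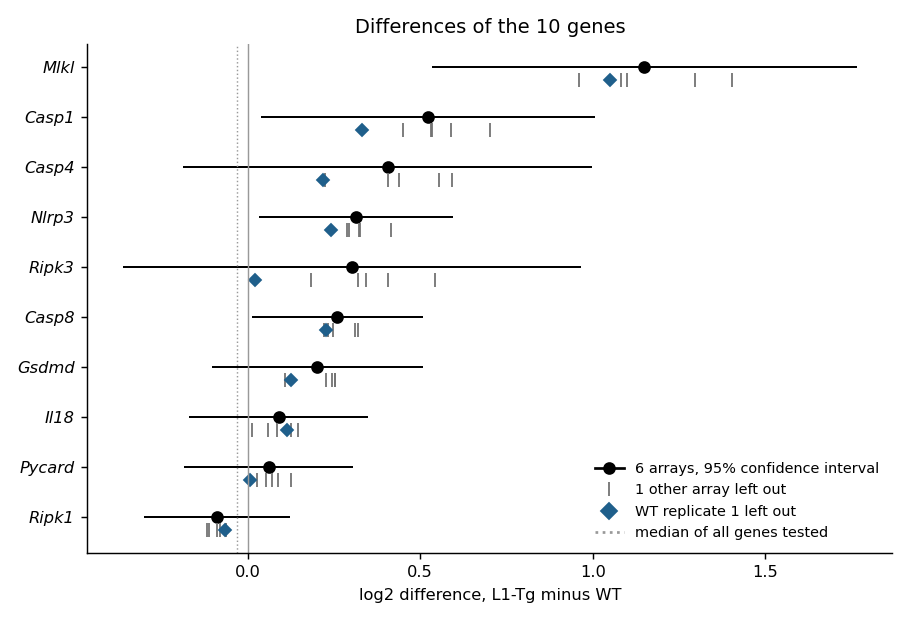
Log2 difference between L1-Tg and WT mice (horizontal axis) for each of the 10 genes, as the estimate over 6 arrays with its 95% confidence interval (black) and with 1 array left out (gray ticks, blue diamond for WT replicate 1). The intervals of Mlkl, Casp1, Nlrp3 and Casp8 lie above 0, and the diamond of Ripk3 lies at 0.02.

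The study itself called differences by an index, the difference of the group means divided by the sum of the group SDs on the linear scale, at a modulus above 0.7. The paper took the index from its own normalized intensities. Here it was computed from linear intensities relative to the percentile of their array, and not from the normalized intensities of the authors. On this scale 5 of the 10 members passed. Of 37069 genes 30.2% passed in either direction, 8.68% with a positive index, and 26.5% of the genes tested in limma passed. Mlkl (1.48), Nlrp3 (1.52), Casp1 (1.05) and Casp8 (1.32) had a positive index, and Ripk1 had an index of -0.84 with groups that lay close together in absolute terms. The other 5 members had an index between 0.32 and 0.67. The highest of these, Gsdmd at 0.67, lay just below the threshold, so the number passing may differ on the authors' scale.

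The order of the arrays within a group recurred over the members. WT replicate 1 was the lowest WT array for 8 of the 10 genes, against 28.5% of all genes tested, and WT replicate 3 was the highest for 6, against 30.1%. L1-Tg replicate 2 was the lowest L1-Tg array for 8 of the 10, against 27.8% of all genes. The exceptions among the WT arrays were Il18 and Ripk1, whose lowest arrays were replicates 2 and 3. The members also differed in spread. The SD over WT pools was above that of 82.5% of all genes for Casp1, 82.7% for Casp4 and 90.7% for Ripk3, but below the median of 0.175 for Casp8, Gsdmd, Il18, Pycard and Ripk1.

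Markers of Kupffer cells and macrophages moved across the arrays with several members. Of 14 such genes tested, 13 had a higher mean in L1-Tg mice, 0 passed at an unadjusted p under 0.05 and all 14 overlapped between the groups. Their median deviation from the WT mean was -0.41, -0.10 and 0.51 in WT replicates 1, 2 and 3 and 0.44, 0.21 and 0.34 in the L1-Tg replicates. Casp1, Casp4, Ripk3 and Nlrp3 shared its lowest and highest WT array, WT replicates 1 and 3. Mlkl shared them too. For Mlkl, Casp1 and Nlrp3 all L1-Tg values lay above WT replicate 3, for Casp1 only just. The median of the markers on WT replicate 3 lay above their median on every L1-Tg array. The summed level of the markers did not do so, as it was highest in L1-Tg replicate 1. The summed level of the list was 111 to 204 in WT and 175 to 205 in L1-Tg mice, in units of the array percentile, with Cd5l and Csf1r the brightest probes and no marker of the list below background on every array. The median difference of the markers was 0.31, and it was 0.11 without WT replicate 1 and 0.61 without WT replicate 3.

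Markers of other cell types varied as well. Of 6 monocyte markers tested, led in brightness by Itgam and Plac8, 5 were higher and Itgam was lower, with a log2 difference of -0.26. An unadjusted p under 0.05 was found for 4 of the 6, against 8.86% of all genes, and the median log2 difference was 0.70. It came to 0.45 without WT replicate 1 and to 0.29 with the normexp correction. The summed level of the 6 tested markers was 14.7 to 27.2 in WT and 16.1 to 20.4 in L1-Tg mice. Of 7 neutrophil markers, led by Csf3r and Elane, 5 were higher, with a median of 0.54 that came to 0.21 when L1-Tg replicate 2 or WT replicate 1 was left out and to 0.15 with the normexp correction. Csf3r and Elane themselves differed by -0.24 and -0.71. The summed level of the 7 tested neutrophil markers was 178 to 197 in L1-Tg and 210 to 259 in WT mice. Fcnb of the monocyte list and Cxcr2 of the neutrophil list were well above background on no array. Of 15 hepatocyte markers, led by Alb and Serpina1a, 13 were lower in L1-Tg mice, with a median of -0.13, which was -0.06 without L1-Tg replicate 3 and -0.20 without L1-Tg replicate 2. The part of these cell types in the differences of the members was not tested.

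**Figure D3:**
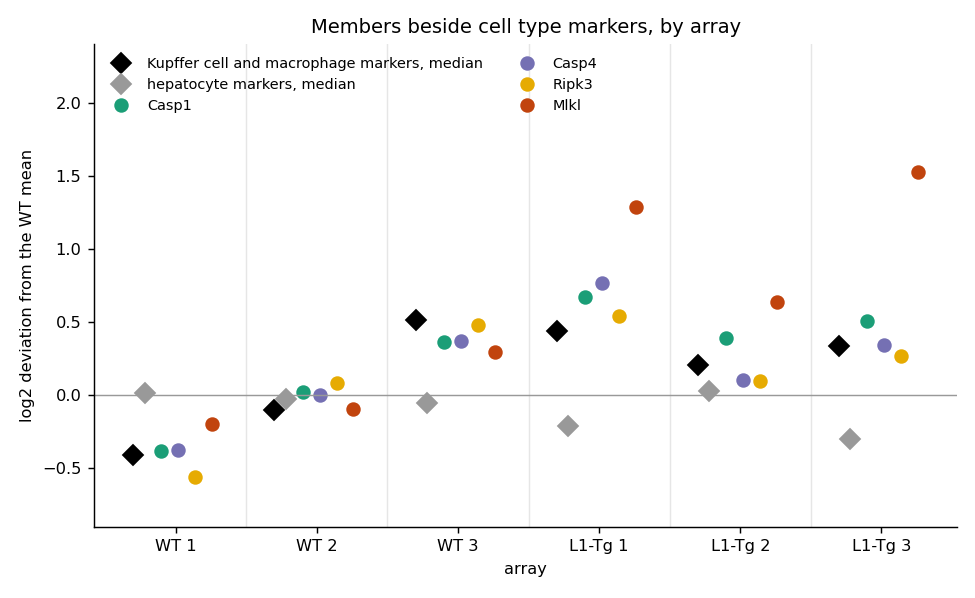
Log2 deviation from the WT mean (vertical axis) on each of the 6 arrays for Casp1, Casp4, Ripk3 and Mlkl and for the median of the Kupffer cell and macrophage markers and of the hepatocyte markers. The Kupffer cell markers and the 4 genes are lowest in WT replicate 1. Mlkl lies above its own highest WT value on all L1-Tg arrays by more than 0.3, and Casp1 does so by less.

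The other genes of these pathways were taken from 4 lists of 100 genes, of which 99 were on the array and 87 were tested. Limma called 0 of the 87, as it called 0.130% of all genes. The difference index, on the scale used here, passed 40 of the 99, where it passed 30.2% of 37069 genes. An unadjusted p under 0.05 was found for 16 of them, 12 higher and 4 lower in L1-Tg mice, or 18.4% against 8.86% of all genes. This number was 8 of 89 without L1-Tg replicate 3, where 1146 of 22752 genes passed. It lay between 11 and 19 with 1 of the other arrays left out. The highest number was found without WT replicate 3, where 2833 of 22539 genes passed. The groups did not overlap for 28.7%, against 15.9% of all genes, with 16 higher and 9 lower.

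Of the inflammasome companions 13 of 19 tested genes were higher and 6 lower, with a median log2 difference of 0.22. That median was 0.08 without WT replicate 2, 0.34 without WT replicate 3 and 0.33 without L1-Tg replicate 3, and 0.09 with the normexp correction. Panx1, a membrane channel for ATP release, had the smallest p of the list and gave -1.26, -1.27 and -1.06 in L1-Tg mice and -1.59, -1.63 and -1.77 in WT mice. The groups were apart, with a log2 difference of 0.47 (SE 0.11, adjusted p = 0.346 in limma). Gsdme, another gasdermin, gave -1.51, -1.46 and -1.20 against -2.01, -1.70 and -2.11, a log2 difference of 0.55 (SE 0.15, adjusted p = 0.440 in limma). All L1-Tg values of Gsdme likewise lay above the WT values. Il18bp, the decoy of IL-18, gave 1.90, 1.53 and 1.83 in L1-Tg and 0.72, 1.12 and 1.72 in WT mice, where replicate 1 was again the lowest. Its groups overlapped, with a difference of 0.57 (limma adjusted p = 0.578). Il1b, the cytokine that caspase-1 matures beside IL-18, varied within both groups, between -1.85 and -0.83 in L1-Tg and between -2.03 and -1.02 in WT mice, and differed by 0.14 (limma adjusted p = 0.906). The sensors Aim2 and Nlrc4 were each well above background on 3 of the 6 arrays, not all of 1 group, and were not tested. Nlrp1b was well above background on no array.

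Of the genes that receive and relay IL-1 and IL-18 signals, 7 of 10 tested were higher, with a median of 0.19, which was 0.09 without WT replicate 2 and 0.11 with the normexp correction. Irak4, the first kinase recruited by MyD88, lay between -2.19 and -1.90 in L1-Tg and between -2.56 and -2.51 in WT mice and was higher by 0.51 (SE 0.10, adjusted p = 0.309 in limma). Irak1, the kinase that IRAK4 activates, differed by 0.32 (limma adjusted p = 0.530). The groups did not overlap for either kinase. The IL-18 receptor genes Il18r1 and Il18rap, and also Il1r2 and Il1rl1, were well above background on no array, in contrast to the ligand Il18, which was well above background on all 6.

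Of the necroptosis and death receptor companions 25 of 33 tested genes were higher and 8 lower, with a median of 0.09. That median lay between 0.06 and 0.14 with 1 array left out, highest without WT replicate 3. Zbp1, a nucleic acid sensor that engages RIPK3 through its RHIM domains, gave 3.15, 3.12 and 3.58 in L1-Tg mice and 1.50, 2.02 and 2.94 in WT mice. The groups did not overlap, although WT replicate 3 came near the L1-Tg arrays, and the difference was 1.13 (SE 0.36, adjusted p = 0.498 in limma). Zbp1 and Mlkl were the 2 genes of the members and this list with a log2 difference above 1. Tnfsf10, which encodes the death ligand TRAIL, had the smallest p, with -0.23, -0.36 and -0.13 against -1.12, -0.94 and -0.67, higher in L1-Tg mice by 0.67 (SE 0.14, adjusted p = 0.323 in limma). Hsp90aa1, a chaperone of RIPK1 and RIPK3, differed by 0.42 (limma adjusted p = 0.472), and its groups did not overlap. Fas, the death receptor, was higher on all L1-Tg arrays and differed by 0.25 (limma adjusted p = 0.567). The adaptor Fadd and the caspase-8 inhibitor Cflar, which lies beside Casp8 on chromosome 1, differed by 0.05 and -0.04, with intervals from -0.15 to 0.26 and from -0.33 to 0.24. Tnf and Fasl were each well above background on 3 arrays, not all of 1 group, and were not tested.

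Of 25 apoptosis genes tested 13 were higher and 12 lower, with a median below 0.01, which turned to -0.04 without WT replicate 2. An unadjusted p under 0.05 in limma was found for 2 higher and 2 lower genes of this list, where 8.86% of all genes passed. Pmaip1, a BH3-only protein, was higher by 1.30 (SE 0.41, adjusted p = 0.494 in limma), with groups that overlapped. It was dim in WT mice, with -4.03, -3.80 and -2.61, and only 2 WT arrays were well above background.

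**Figure D4:**
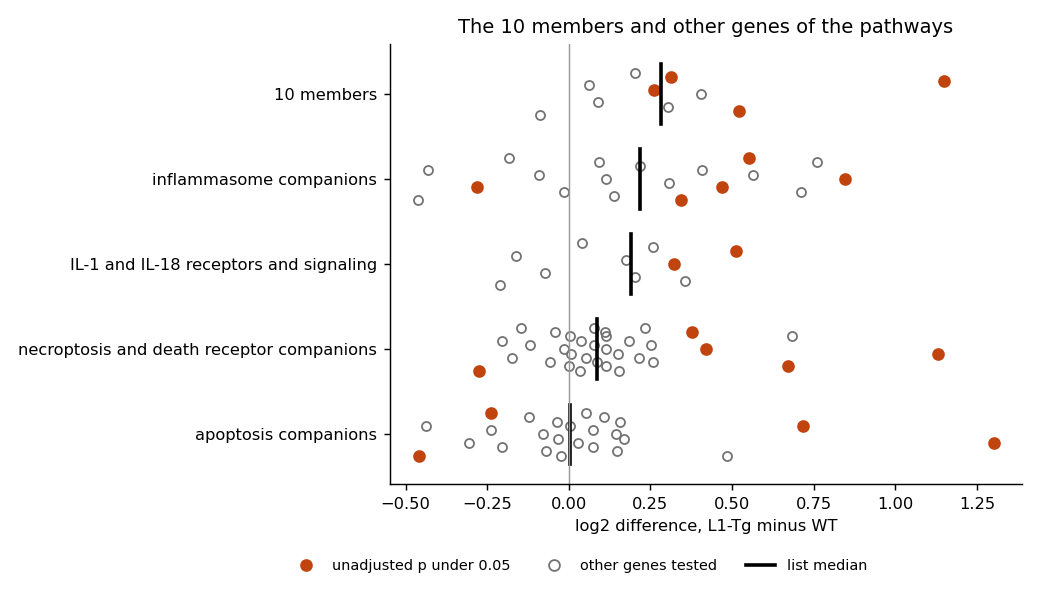
Log2 difference between L1-Tg and WT mice (horizontal axis) for the 10 members and for the tested genes of 4 lists of related genes, with filled points for an unadjusted p under 0.05 and a bar for the median of each list. Medians are 0.28 for the members, 0.22, 0.19 and 0.09 for the next 3 lists and about 0 for apoptosis, and no gene passed the adjusted threshold.

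Several of these genes, among them Mlkl, Zbp1, Casp1, Casp4 and Tnfsf10, are known to be inducible by interferon. A reference list of 20 tested interferon-stimulated genes, none of them a member, was chosen with earlier results of these data known. All 20 were higher in L1-Tg mice, against 43.1% of all genes tested. An unadjusted p under 0.05 in limma was found for 14, against 8.86% of all genes. The median log2 difference was 1.47, against -0.03 over all genes. In limma 0 of the 20 passed after adjustment over all genes. The median deviation of the list from the WT mean was -0.45, 0.09 and 0.37 on the WT arrays and 1.39, 1.19 and 1.69 on the L1-Tg arrays. Mlkl and Nlrp3 shared the lowest and highest arrays of this list in both genotypes. These were WT replicates 1 and 3 and L1-Tg replicates 2 and 3. WT replicate 1 and L1-Tg replicate 2 were each the lowest of their group for 8 of the 10 members. The same arrays were lowest for the median of the Kupffer cell and macrophage markers. The part of interferon in the differences of the members was not tested.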

How the data were processed

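Liver RNA of 3 L1-Tg and 3 WT pools was measured on 1-color Agilent arrays, with groups taken from the genotype labels. The authors processed the scans with Agilent Feature Extraction 10.10.1.1, named in the file headers. The deposited processed signal is a linear intensity that was background-corrected array by array without scaling across arrays. The authors also deposited marks of 0 or 1, kept here as other values, for spots that were non-uniform, saturated or well above background. Their deposited matrix holds intensities equal to the processed signal times 1 factor per array.

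Control spots were left out, between 1 and 22 non-uniform spots per array were treated as missing, and spots of a repeated probe were averaged. The log2 signal minus the 75th percentile of its array was used, and each gene was read from its brightest probe, by the mean over the arrays. Genes entered the test where all arrays of either group, or of both, were well above background. The two-sided test was limma's lmFit with eBayes (version 3.58.1, R 4.3.3), adjusted by Benjamini-Hochberg over all genes tested at a threshold of 0.05, and version 1.17.8 of data.table read the files. The procedure was tested on simulated data. Precision is limited by the number of arrays. Of 28685 probes with a RefSeq-type name 27235 matched a symbol, and promoters came from the RefSeq table. Protein sequences were not used here.

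The members and all gene lists were chosen with earlier results of these data known. Named beside the members were genes fixed by name, some of which are not reported here, and the 2 genes of each companion list with the smallest p, and of the marker lists the brightest 2 genes and those well above background on no array. The markers covered Kupffer cells and macrophages, monocytes, neutrophils, T and NK cells, B cells, endothelial cells, cholangiocytes, stellate cells and hepatocytes. Alternatives were tried for the scaling, background correction, dim-probe filter, choice of probe, test, replicate block, population-outlier spots and single arrays left out. The population-outlier alternative was chosen after seeing the data.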

Additional observations from a re-analysis of the deposited data

How the results depend on the processing

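Limma called 0 of the 10 members and 0 of the companion genes in every alternative run for them other than the difference index. That index, computed on the scale used here and not on the authors' normalized intensities, passed 5 of the 10 members. It passed 40 of 99 companion genes and 30.2% of 37069 genes. The 29 genes called over all became 10 without a filter on dim probes, 0 without moderated variances and 11207 of 37069 by the difference index. They lay between 15 and 36 with 1 array left out. The median difference of the members lay between 0.17 and 0.32 with 1 array left out, lowest without WT replicate 1. The members whose groups did not overlap numbered 4, and 1 without scaling, where 8.35% of all genes did not overlap. They numbered between 4 and 7 with 1 array left out, with 7 without WT replicate 3. Groups with fewer arrays fail to overlap more readily, so these counts cannot be set against the 4 of all arrays. Among 169 alternative values of single members 2 reversed, Nlrp3 to -0.042 with the normexp correction and Ripk1 to 0.021 with the array median. The array median moved the median of all genes from -0.03 to 0.08, so Ripk1 was still below it, and it raised the medians of the gene lists by about as much. The cause of these changes was not tested. The depth of an array is its signal over background, which limits Nlrp3 most among the members.

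With the replicate number as a block, which is also the slide column, the genes called over all numbered 11 and 0 members passed. Deviations from the group means correlated between same-numbered arrays with r = -0.157, 0.111 and 0.0193 across genes, so the numbers were not taken to pair the pools.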

Other observations

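Of 11 T and NK cell markers tested, 7 were higher in L1-Tg mice and 4 lower. The brightest, Cd4 and Nkg7, were among the lower, with log2 differences of -0.71 and -0.06. An unadjusted p under 0.05 in limma was found for 1 marker, also lower. The median log2 difference of the list was 0.08. That median turned to -0.21 without WT replicate 1, with 3 of 11 higher, and was 0.49 without WT replicate 2. Of 6 B cell markers, led by Cd22 and Cd79b, 5 were higher and Cd22 was lower, with a log2 difference of -0.12. The list had a median of 0.53 and an unadjusted p under 0.05 for 0 of its genes. The median was 0.25 without WT replicate 1, 0.28 without L1-Tg replicate 2 and 0.78 without L1-Tg replicate 3. The endothelial list, led by Kdr and Clec4g, had 6 of 8 genes higher and a median of 0.12, which was between 0.05 and 0.17 with 1 array left out, lowest without WT replicate 1. The cholangiocyte list, led by Tm4sf4 and Spp1, had 3 of 7 higher and a median of -0.03, and the stellate cell list, led by Dcn and Col3a1, had 3 of 8 higher and a median of -0.05. With 1 array left out these medians ranged from -0.12 (without WT replicate 2) to 0.07 (without L1-Tg replicate 1) and from -0.21 (without L1-Tg replicate 3) to 0.01 (without WT replicate 3), so their direction was not stable. Limma called 0 genes of these lists after adjustment over all genes.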
